A study of Mus musculus with 18 samples.

Results

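The respiratory chain subunit genes are the nuclear genes for the protein subunits of complexes I to V of the inner mitochondrial membrane. They were chosen by symbol (Nduf followed by a, b, c, s or v and a number, Sdha to Sdhd, Uqcr, Cox4 to Cox8 and Atp5), with the Ndufaf assembly factors left out. The rule found 81 of the 18193 genes that had a probe set of their own, with 35 in complex I, 4 in complex II, 8 in complex III, 17 in complex IV and 17 in complex V. Complexes were assigned by symbol, so the 35 include Ndufa4, now counted as a subunit of complex IV, and its paralog Ndufa4l2. A probe set is a group of short probes that read the same transcript, and where a gene had several, as 48 of the 81 did, the probe set with the highest mean over all 18 arrays was used. Ndufs6, Ndufa11 and Cox7b had no probe set listing their symbol alone and are not among the 81.

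Total RNA came from small-intestinal crypts of mice 2 months old, taken 2 days after an inducible Cre recombinase had deleted the target genes. By the labels, Myc, E2f1, E2f2 and E2f3 were deleted in E2f/Myc QKO mice (QKO, n = 5), Myc in Myc KO mice (n = 4), and E2f1, E2f2 and E2f3 in E2f TKO mice (TKO, n = 5), and the remaining mice (n = 4) are labelled control, with no genotype given. The Cre was Ah-cre, driven by the Cyp1a1 promoter and switched on in the intestinal epithelium by ligands of the aryl hydrocarbon receptor. Whether control mice carried the Cre or received the inducer, whether E2f1 and E2f2 were lost from birth, and the sex of the mice are not given in the labels. Xist, expressed from an inactive X chromosome, was high on 2 QKO, 0 Myc KO, 2 TKO and 1 control array, at 12.02 or above, and 6.96 or below on the rest, and with its signal as a covariate 38 of the 45 calls held. The labels name separate samples of each group and nothing on litters or days, so each p-value measures the spread between these samples.

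Array medians were 6.22 to 6.26 in QKO and Myc KO arrays together, against 6.14 to 6.19 in TKO and control arrays. Myc read 7.94 to 8.52 in QKO arrays, 8.11 to 8.40 in Myc KO, 9.99 to 10.66 in TKO and 9.69 to 10.30 in control. The probe sets of E2f1 and E2f2 were not lowered past the test. E2f1 read 7.73 to 8.27 in QKO, 7.48 to 7.84 in TKO and 7.70 to 8.05 in control, and E2f2 read 9.18 to 9.41 in QKO, 8.61 to 9.16 in TKO and 8.91 to 9.28 in control. Whether these probe sets lie in the deleted parts of the genes was not tested. The arrays labelled E2f TKO 2 and 5 stood apart from the other 16. Cyp1a1, the gene whose promoter drives the Cre, read 5.05 and 4.91 on them and 12.66 to 14.09 on the rest, and E2f3 read 9.35 and 9.10 on them, while QKO arrays read 8.09 to 8.19 and control arrays 8.62 to 8.96. Some of the results that involve TKO arrays are therefore also given without these 2, and the others are from all 5 TKO arrays only. Without these 2 arrays 38 of the 45 calls held. The gap between 3′ and 5′ probe sets of beta-actin, a sign of RNA integrity, was 0.19 to 0.31 in QKO, 0.18 to 0.22 in Myc KO, 0.26 to 0.78 in TKO and 0.31 to 0.44 in control arrays. In a fit that used this gap as a covariate 30 of the 45 calls held and 15 did not. Its part in the results below was not tested beyond that fit. Markers of the crypt's cells were present, with a mean log2 signal of 9.80 to 10.63 in QKO and 9.40 to 9.63 in control arrays over 8 stem cell genes, and of 12.74 to 13.07 in QKO and 12.24 to 13.25 in control over 7 Paneth cell genes.

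Complex I oxidises NADH, complex II oxidises succinate, and both pass electrons through coenzyme Q to complex III and on by cytochrome c to complex IV, which reduces oxygen. Complex V, the ATP synthase, uses the proton gradient that the others build. Most subunits are encoded in the nucleus and imported, while a core set is encoded by mitochondrial DNA, which was not analysed here. In intestinal crypts dividing progenitors and stem cells use oxidative metabolism, and Myc is known from other cells as an activator of genes for mitochondrial biogenesis.

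Promoters were read for motifs of the factors deleted here and of factors known for respiratory genes. RefSeq windows of 300 bases on GRCm38.p6, running from 250 before to 50 after the start, were found for 66 of the 81 genes, giving 71 windows against 32851 of all genes, and both strands were searched. The E-box CACGTG, a site that Myc can bind, lay in 9.86% of the members' windows and 7.15% of all windows. It lay in the windows of Atp5g1, Atp5g3, Atp5l, Atp5pb, Ndufa7 and Ndufv1. The E2F sites TTTCGCGC and TTTGGCGC lay in 0% and 2.82% of the members' windows, against 0.323% and 0.514% of all windows. The 2.82% is only 2 of the 71 windows, those of Cox5a and Cox8a. Motifs of respiratory gene regulators were met more often in the members' windows than in all windows. CCGGAAG, the core of an ETS site such as GABP binds, lay in 23.9% of the members' windows against 8.86% of all, and AAGATGGC, a YY1 site, in 12.7% against 2.75%. The palindromic core of an NRF1 site lay in 5.63% against 0.971%. With any base in its middle position, a wider form that includes the first and was chosen after reading the windows, it lay in 22.5% against 4.6%. A match describes these letters and does not show binding.

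The windows below are those of Ndufs5, Ndufb10 and Ndufc2, past the test in 3 comparisons each, and of Atp5pb and Ndufa7, shown because they passed a test and hold an E-box, a choice made after their values were seen. Atp5d also passed in 3 comparisons, but no RefSeq window was found for it. Capitals mark a motif, and where none are present no motif searched was found. They lie at chr4:123718137-123718436 on the minus strand, chr17:24724374-24724673 on the minus strand, chr7:97399753-97400052 on the plus strand, chr3:105959214-105959513 on the minus strand and chr17:33824322-33824621 on the plus strand, and each is written 5′ to 3′ on its gene's strand.
Ndufs5: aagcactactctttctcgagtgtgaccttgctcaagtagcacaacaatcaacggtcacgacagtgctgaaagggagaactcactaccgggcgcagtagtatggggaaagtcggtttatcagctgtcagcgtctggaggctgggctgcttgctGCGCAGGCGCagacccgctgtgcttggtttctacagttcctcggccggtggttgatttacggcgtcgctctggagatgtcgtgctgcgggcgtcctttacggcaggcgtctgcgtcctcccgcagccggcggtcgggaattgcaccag
Ndufb10: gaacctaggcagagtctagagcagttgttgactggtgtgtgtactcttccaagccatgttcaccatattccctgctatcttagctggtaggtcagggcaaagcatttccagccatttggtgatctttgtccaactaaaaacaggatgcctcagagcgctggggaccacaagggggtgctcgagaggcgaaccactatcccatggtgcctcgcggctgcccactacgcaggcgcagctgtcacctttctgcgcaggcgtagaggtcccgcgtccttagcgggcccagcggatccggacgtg
Ndufc2: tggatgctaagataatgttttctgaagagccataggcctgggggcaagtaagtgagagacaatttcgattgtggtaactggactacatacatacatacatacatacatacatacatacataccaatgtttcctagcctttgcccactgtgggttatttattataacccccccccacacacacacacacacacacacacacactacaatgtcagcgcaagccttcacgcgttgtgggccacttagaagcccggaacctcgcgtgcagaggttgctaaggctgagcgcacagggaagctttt
Atp5pb: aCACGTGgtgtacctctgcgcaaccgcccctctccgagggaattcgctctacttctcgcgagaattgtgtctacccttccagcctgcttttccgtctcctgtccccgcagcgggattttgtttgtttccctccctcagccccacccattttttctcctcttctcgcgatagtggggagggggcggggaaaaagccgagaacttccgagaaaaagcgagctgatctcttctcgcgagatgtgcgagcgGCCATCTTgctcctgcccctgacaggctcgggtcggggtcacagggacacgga
Ndufa7: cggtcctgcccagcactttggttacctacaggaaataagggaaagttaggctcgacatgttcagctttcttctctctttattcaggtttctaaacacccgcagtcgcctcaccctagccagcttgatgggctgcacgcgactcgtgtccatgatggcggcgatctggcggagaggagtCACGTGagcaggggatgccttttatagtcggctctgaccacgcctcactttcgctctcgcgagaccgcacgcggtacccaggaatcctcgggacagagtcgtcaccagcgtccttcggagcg
In Ndufs5 the capitals are the NRF1 core with any middle base, starting 98 bases before the start. In Atp5pb they are the E-box 249 bases before and a YY1 site on the other strand 3 bases before the start, and in Ndufa7 the E-box 72 bases before it.

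Taken complex by complex and on the brightest probe set listing each gene alone, the subunit genes stayed close to their control level in all 3 knockouts. Other probe sets of some of these genes did fall when Myc was lost, and they are described below. The mean log2 signal of a complex, set against the mean of the control arrays, lay between -0.15 and 0.13 on every knockout array. Control arrays themselves spread from -0.07 to 0.10. For complex I, with 35 genes, the group means were -0.01 ± 0.05 in QKO (SD, n = 5), -0.02 ± 0.03 in Myc KO (n = 4), -0.06 ± 0.07 in TKO (n = 5) and 0.00 ± 0.04 in control (n = 4). Complex III had the highest means in QKO (0.06 ± 0.05) and Myc KO (0.05 ± 0.02), and complex V the lowest in TKO (-0.07 ± 0.05). Each of these is about the size of the spread between arrays of a group. In whole-crypt RNA, fewer cells of a type and less RNA per cell cannot be told apart.

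**Figure D1:**
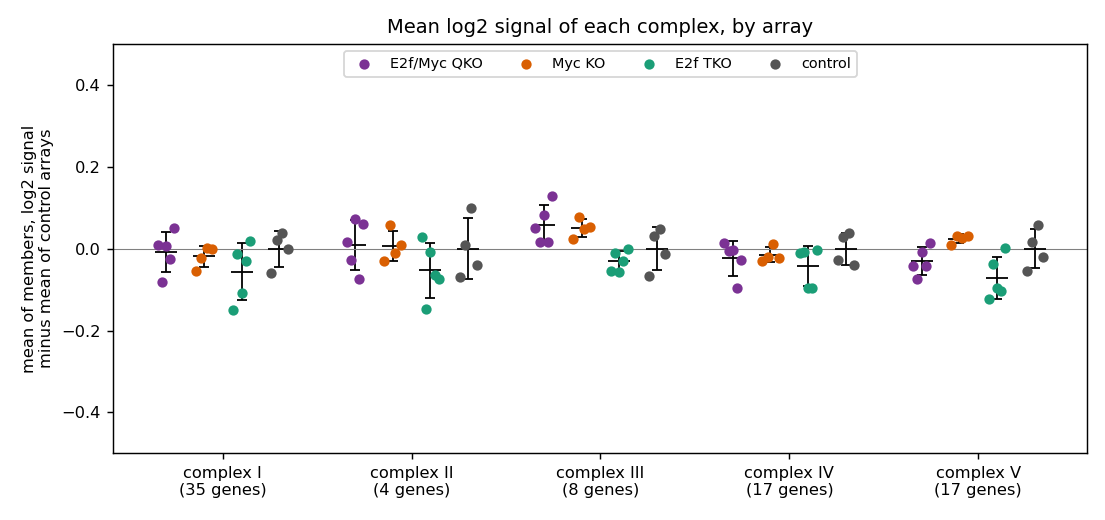
Mean log2 signal of the members of each complex on every array (points), minus the mean of the 4 control arrays, for QKO, Myc KO, TKO and control arrays from left to right, with group mean and SD as black bars. All points lie between -0.15 and 0.13, and each knockout overlaps control in each complex.

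The median difference of the 81 genes was 0.01 for QKO minus control, 0.03 for Myc KO minus control and -0.05 for TKO minus control, and over all genes it was 0.03, 0.02 and -0.004. The middle of the list moved by a few hundredths when the arrays were rescaled, to 0.09 in QKO with quantile normalization and to -0.05 with array medians set equal, so its sign depends on the scaling. The size of a typical change was small. The median absolute difference was 0.108 in QKO, 0.076 in Myc KO and 0.066 in TKO, against 0.163, 0.129 and 0.088 over all genes. Among 487 genes with a mean signal at or above the lower quartile of the members (the bright genes) it was 0.157, 0.145 and 0.076. The 95% confidence interval lay wholly within 0.5 of 0 for 75 of the 81 in QKO, 72 in Myc KO and 76 in TKO. That is 92.6%, 88.9% and 93.8% of the members, against 343, 343 and 414 of the 487 bright genes. Signals were high, with a median of 12.86 on a scale that ended at 14.81. Whether this compresses their differences was not tested.

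By limma with Benjamini-Hochberg adjustment over all 18193 genes, 18 members passed an adjusted p of 0.05 in QKO against control, 11 higher and 7 lower. That is 22.2% of the members, against 26.9% of all genes (14.3% higher, 12.6% lower) and 31.8% of the bright genes. In Myc KO 7 passed, 4 higher and 3 lower, or 8.64% against 8.31% of all genes (3.59% higher, 4.72% lower) and 15% of the bright genes. In TKO Ndufs5 alone passed, or 1.23% against 2.9% of all genes (1.68% higher, 1.22% lower) and 1.23% of the bright genes. The shares are near or below the background in each comparison. The split between higher and lower followed the scaling. In QKO it was 22 higher and 3 lower after quantile normalization and 4 higher and 16 lower with array medians set equal, and in Myc KO 11 and 4, and 1 and 4. Direction is therefore described gene by gene. Without the arrays labelled TKO 2 and 5, 6 members were lower and 0 higher in TKO, when 7.27% of all genes passed. Besides Ndufs5 these were Atp5e (-0.37), Atp5c1 (-0.21), Atp5g2 (-0.28), Atp5j (-0.25) and Cox7c (-0.63).

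**Figure D2:**
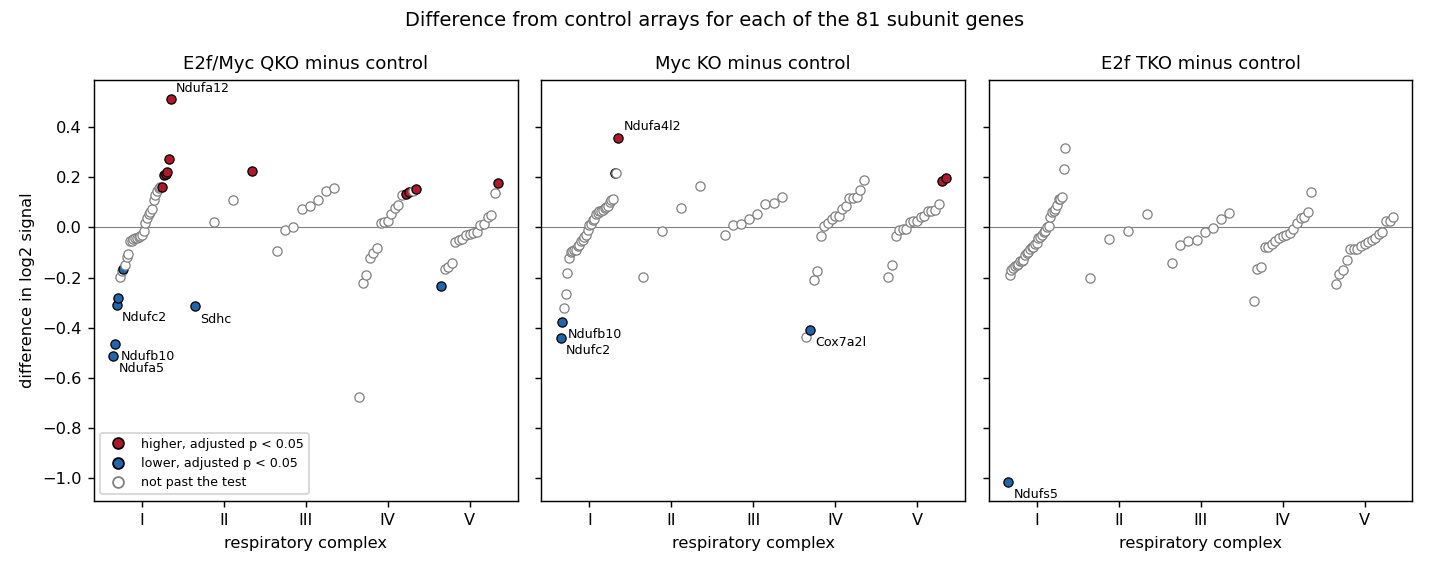
Difference in log2 signal for each of the 81 genes, sorted within complexes I to V, in QKO, Myc KO and TKO minus control from left to right. Red points are higher and blue points lower at a limma adjusted p below 0.05, and open points did not pass. Named points have a difference beyond 0.3, and Ndufs5 in TKO, at -1.01, lies farthest from 0.

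In complex I, Ndufs5 had the largest difference of any member. Its product is an accessory subunit of the membrane arm on the intermembrane-space side, and its gene lies on chromosome 4, as does E2f2, 1 of the deleted genes. The probe set read 9.999, 10.12, 10.04, 10.12 and 9.85 in the 5 TKO arrays, against 10.70, 11.09, 11.21 and 11.15 in control. It read 10.95, 10.89, 11.02, 10.86 and 11.21 in QKO and 10.61, 10.69, 11.04 and 11.09 in Myc KO. All 5 TKO values lay below the other 13, while QKO and Myc KO overlapped control. Ndufs5 fell by 1.01 ± 0.12 in TKO (SE, adjusted p = 7.7e-05), a 2.02-fold lower signal, and without arrays 2 and 5 by 0.99. In QKO it was 0.96 ± 0.11 higher than in TKO (adjusted p = 4.5e-05), and 0.93 without those arrays. The interaction, QKO minus TKO minus Myc KO plus control, was 1.14 ± 0.17 (adjusted p = 0.0085), and Ndufs5 was the only member past that test, or 1.23% against 0.055% of all genes (0.0385% higher, 0.0165% lower; 10 genes) and 0% of the bright genes. Another probe set, which lists both Ndufs5 and its pseudogene Ndufs5-ps, did not show the gap. It read 10.65 to 10.95 in QKO, 10.84 to 11.02 in Myc KO, 10.88 to 11.08 in TKO and 11.03 to 11.25 in control. On it QKO, not TKO, had the lowest mean, at 10.82 ± 0.12 (SD, n = 5) against 10.996 ± 0.076 in TKO, so the TKO fall and the interaction of Ndufs5 rest on 1 probe set.

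Ndufb10 fell in both groups without Myc, and Ndufa5 fell in QKO. Ndufb10, an accessory subunit of the distal membrane arm, read 11.70, 11.56, 11.81, 11.65 and 11.91 in QKO, and 11.74, 11.85, 11.77 and 11.88 in Myc KO. It read 11.86, 12.12, 11.98, 12.10 and 12.20 in TKO and 12.13, 12.14, 12.27 and 12.21 in control. No QKO or Myc KO array reached the lowest control value, 12.13. Of the TKO arrays only the one labelled 5 did, at 12.20, so lying below control was not limited to the groups without Myc. The difference from control was -0.46 ± 0.08 in QKO (adjusted p = 0.00039) and -0.38 ± 0.08 in Myc KO (adjusted p = 0.010), and both calls held in every alternative that gave it a value. QKO was 0.33 ± 0.07 below TKO (adjusted p = 0.0062), and without arrays 2 and 5 it was 0.26 below and did not pass (adjusted p = 0.0505). Ndufa5, an accessory subunit of the peripheral arm next to the quinone site, averaged 11.11 ± 0.10 in QKO (SD, n = 5), with no array above 11.22, and read 11.60, 11.57, 11.73 and 11.59 in control. The groups did not overlap. Ndufa5 fell by 0.51 ± 0.08 in QKO (adjusted p = 0.00023), and its other probe set also passed there. In Myc KO it read 11.32, 11.42, 11.26 and 11.44, a difference of -0.26 that did not pass (adjusted p = 0.064), though without arrays 2 and 5 of TKO, which share the fit, the same difference did pass (adjusted p = 0.046). TKO arrays spread from 11.17 to 11.58. QKO was 0.32 ± 0.08 below TKO for Ndufa5 (adjusted p = 0.0084), and 0.24 below without arrays 2 and 5, which did not pass (adjusted p = 0.067).

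Ndufv3, a small accessory subunit of the NADH-oxidising module, rose in QKO. Its arrays read 12.43, 12.46, 12.48, 12.40 and 12.53 in QKO, 12.15, 12.12, 12.16 and 12.14 in Myc KO, 12.30, 12.37, 12.27, 12.33 and 12.38 in TKO, and 12.18, 12.29, 12.29 and 12.19 in control. QKO was above every other array and Myc KO below every other. The difference was 0.22 ± 0.05 for QKO minus control (adjusted p = 0.0043) and 0.32 ± 0.05 for QKO minus Myc KO (adjusted p = 0.00093). In this last comparison 2 members passed, both higher, which is 2.47% against 7.68% of all genes (4.6% higher, 3.09% lower) and 5.95% of the bright genes. Ndufa3, a small membrane-arm subunit, also rose in QKO, by 0.27 ± 0.06 (adjusted p = 0.0044), with 13.17, 13.10, 13.21, 13.20 and 13.22 in QKO against 12.87, 12.95, 12.94 and 12.88 in control. Ndufa13 (0.21), Ndufa7 (0.16) and Ndufa4l2 (0.21), the last placed in complex I by its symbol alone, also passed as higher in QKO beside Ndufa12. Ndufa6 (-0.28), whose product is an LYR protein of the peripheral arm, Ndufa9 (-0.17) and Ndufc2 passed as lower. Ndufa7 and Ndufa9 lost the call when any of 15 and 14 of the 18 arrays was left out, with adjusted p up to 0.14 and 0.13, and the Ndufa6 call with quantile normalization (-0.17).

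**Figure D3:**
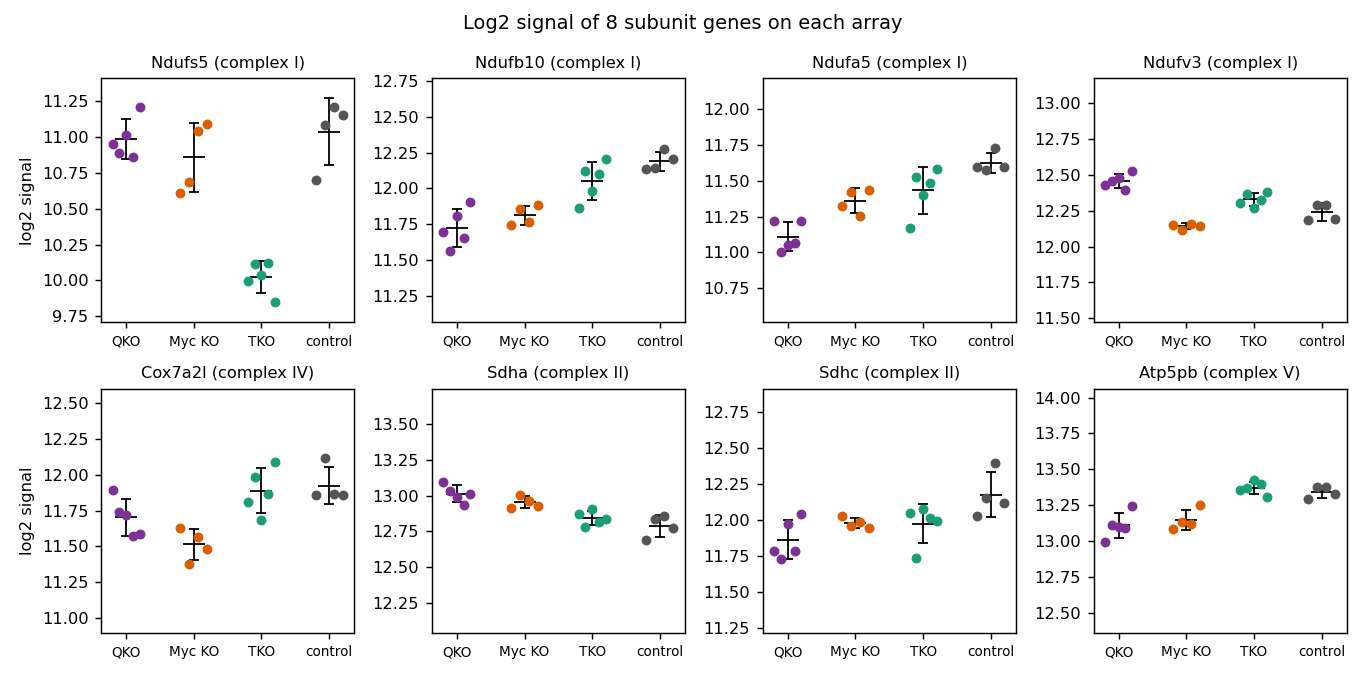
Log2 signal of 8 members on every array (points) with group mean and SD (black), for QKO, Myc KO, TKO and control from left to right. Ndufs5 is low in the 5 TKO arrays alone, at 9.85 to 10.12, while Atp5pb is low in both groups without Myc. Ndufb10 has its lowest means in those groups, and most TKO arrays also lie below control.

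For Ndufc2 and Ndufa12 the gene's probe sets differed among themselves. Ndufc2, an accessory subunit of the membrane arm, read 12.37, 12.35, 12.39, 12.58 and 12.63 in QKO, 12.28, 12.36, 12.32 and 12.36 in Myc KO, 12.61 to 12.94 in TKO, and 12.65, 12.75, 12.86 and 12.84 in control on its brightest probe set. On this one the difference was -0.31 ± 0.08 in QKO (adjusted p = 0.0078) and -0.44 ± 0.08 in Myc KO (adjusted p = 0.0044). The next 2 probe sets, almost as bright, gave 0.10 and 0.06 in QKO and -0.10 and -0.04 in Myc KO, and none of these passed. Ndufa12, an accessory subunit of the peripheral arm, read 13.00, 12.87, 12.63, 13.07 and 12.68 in QKO, 11.98, 11.88, 12.04 and 12.15 in Myc KO, and 12.35, 12.35, 12.29 and 12.36 in control on its brightest probe set. TKO arrays spread from 12.15 to 13.10, with the arrays labelled 2 and 5 highest at 13.10 and 12.95. The difference was 0.51 ± 0.15 for QKO minus control (adjusted p = 0.017) and 0.84 ± 0.15 for QKO minus Myc KO (adjusted p = 0.0022). For TKO minus control it was 0.32 with all arrays and 0.07 without arrays 2 and 5, and neither passed. A second bright probe set of Ndufa12 went the other way, with 11.58 to 11.87 in QKO and 12.19 to 12.22 in control, a difference of -0.50 that passed when every probe set was tested (adjusted p = 6.1e-05). The third differed by -0.14, at 12.01 to 12.35 in QKO and 12.28 to 12.38 in control, and did not pass. The direction of these 2 genes depends on the probe set.

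**Figure D4:**
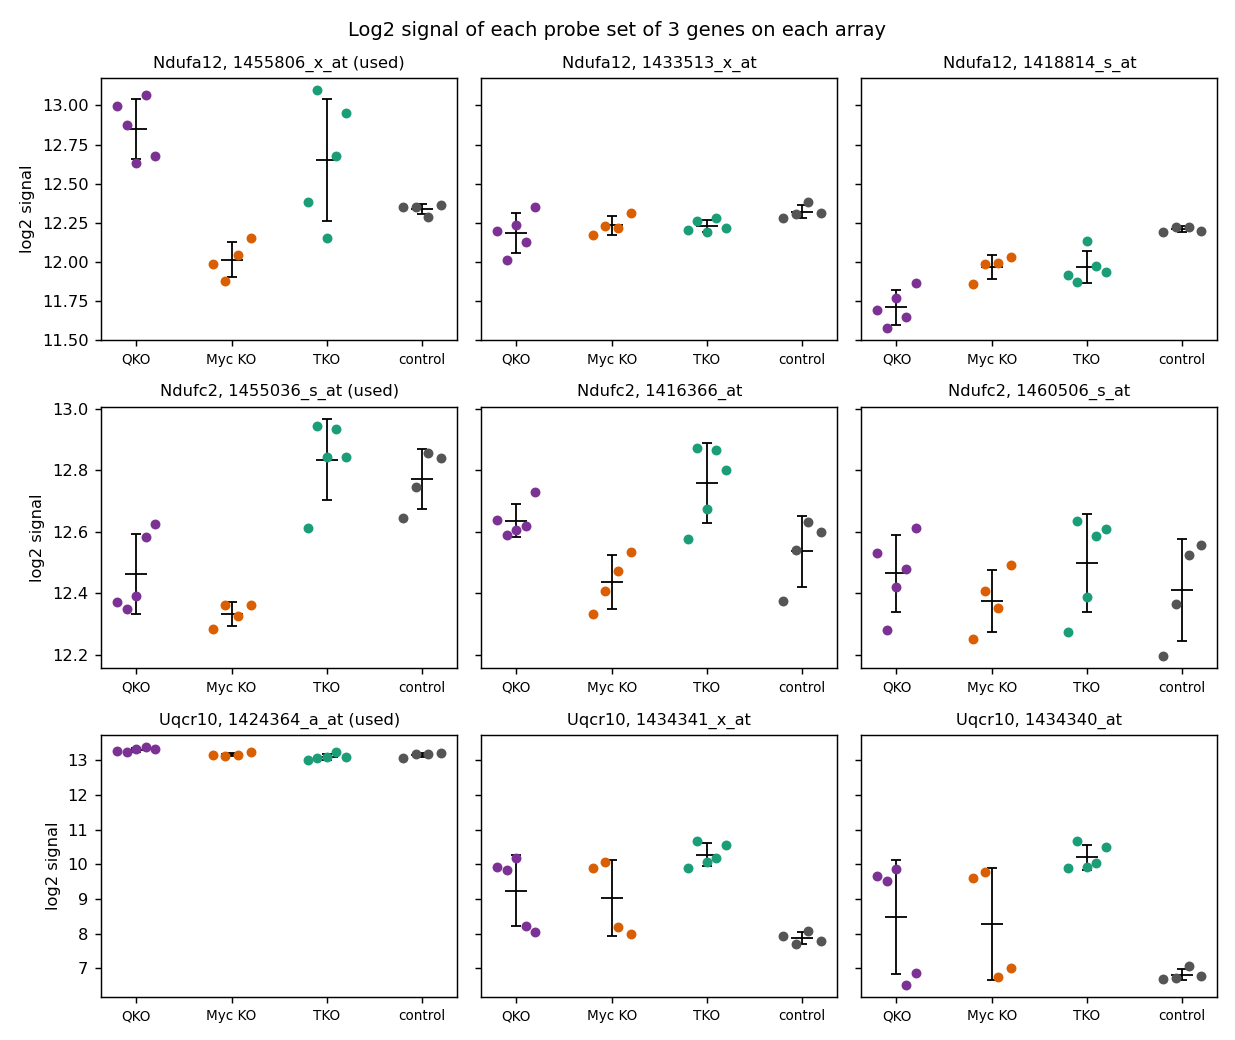
Log2 signal of the 3 brightest probe sets of Ndufa12, Ndufc2 and Uqcr10 (rows) on every array, with group mean and SD, for QKO, Myc KO, TKO and control from left to right. The probe set at the left of each row is the one used. In Uqcr10 the used probe set stays at 13.01 to 13.37, while the other 2 split the arrays into a high and a low set within QKO and Myc KO.

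Of the 18 calls in QKO against control, 12 were of genes with another probe set above a log2 signal of 8, and in 2 of the 12 (Ndufa12 and Ndufc2) such a probe set had the opposite sign. In 5 of the 12 another probe set also passed in the same direction. Against TKO, 5 of 12 such calls had a probe set of opposite sign. Ndufb10, Ndufv3, Ndufa6 and Ndufa9 have no other probe set of their own above that level, and Ndufs5 has only the one shared with its pseudogene. The probe set used for Ndufb4 had a mean of only 4.47. Brighter ones, 2 in number, list Ndufb4 together with Ndufb4b and Ndufb4c. In QKO these read 11.65 to 11.80 and 11.67 to 11.83, below the 11.88 to 12.03 and 11.98 to 12.12 of control. Myc KO and TKO overlapped control on both. Ndufc1, a small subunit of the membrane arm, is another gene whose probe sets differed. It read 13.30, 13.16, 13.36, 13.27 and 13.41 in QKO, 13.33, 13.39, 13.35 and 13.35 in Myc KO, 12.96, 13.07, 13.03, 12.99 and 13.10 in TKO, and 13.07, 13.14, 13.25 and 13.10 in control. Every Myc KO array was above every control array, and every QKO array above every TKO array. Ndufc1 rose by 0.22 ± 0.06 in Myc KO against control (adjusted p = 0.039) and by 0.27 ± 0.06 in QKO against TKO (adjusted p = 0.0036), while its other probe set differed by -0.04 in Myc KO and did not pass. The Myc KO call was lost when any of 8 arrays was left out, each Myc KO array among them, with an adjusted p up to 0.11.

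Probe sets other than the brightest were tested too, in a fit chosen after seeing the data. The members had 59 such probe sets with a mean log2 signal of at least 8, in 40 genes. In QKO against control 15 of them were lower and 9 higher, or 25.4% and 15.3%, against 30.2% lower and 9.59% higher among all 3879 such probe sets. In Myc KO 10 were lower and 0 higher, or 16.9% and 0%, against 14.7% and 4.8% of all. In QKO against TKO 13 were lower and 4 higher, or 22% and 6.78%, against 24% and 5.96% of all. The shares of lower probe sets are near the background in each of the 3 comparisons. They include genes whose brightest probe set did not pass, 12 genes lower and 3 higher in QKO and 8 lower and 0 higher in Myc KO.

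Among these Atp5o, Cox6c, Ndufb6, Uqcrc2, Ndufb5, Sdhd and Ndufs4 had a probe set that was lower in both QKO and Myc KO. Atp5o, a subunit of the peripheral stalk of complex V, read 9.45, 9.59, 9.66, 9.83 and 9.92 in QKO, 9.72, 9.76, 9.83 and 9.86 in Myc KO, 10.71, 10.66, 10.71, 10.80 and 10.57 in TKO and 10.98, 10.63, 11.13 and 11.005 in control on this probe set. All QKO and Myc KO arrays lay below all others, and the difference from control was -1.25 in QKO (adjusted p = 4.2e-07) and -1.15 in Myc KO (adjusted p = 2.8e-05), against -0.02 and -0.01 on the brightest. Cox6c, a small subunit of complex IV, read 11.47, 11.62, 12.05, 12.12 and 12.01 in QKO, 12.14, 12.17, 12.18 and 12.10 in Myc KO, 12.70, 12.85, 12.98, 12.71 and 12.85 in TKO and 12.78, 12.76, 12.89 and 12.84 in control. It differed by -0.96 in QKO (adjusted p = 1.2e-05) and -0.67 in Myc KO (adjusted p = 0.0018), against 0.05 and 0.08 on the brightest. Uqcrc2, a core protein of complex III, differed by -0.48 in QKO (adjusted p = 0.0001) and -0.45 in Myc KO (adjusted p = 0.0012) on its second probe set. Ndufb6, a membrane-arm subunit of complex I, differed by -0.79 in QKO and -0.73 in Myc KO, and Ndufb5, another, by -0.49 and -0.35. The dimmer probe sets of Sdhd and Ndufs4 differed by -0.83 and -0.60 in QKO and -0.69 and -0.41 in Myc KO. Cox5a had 2 bright probe sets at -0.34 in QKO, which passed, beside 0.02 on the brightest. For these genes the change seen depends on the probe set, and which transcripts each one reads was not tested.

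Complex II has 4 subunits, and 2 of them moved in opposite directions in QKO. Sdha, the flavoprotein that binds succinate, read 13.10, 13.04, 12.99, 12.93 and 13.01 in QKO, 12.91, 13.01, 12.97 and 12.93 in Myc KO, 12.87, 12.78, 12.91, 12.82 and 12.83 in TKO, and 12.69, 12.83, 12.86 and 12.77 in control. QKO and Myc KO lay above every control array. The rise of 0.22 ± 0.05 in QKO (adjusted p = 0.0058) held in every alternative that gave it a value, and a second bright probe set passed too. Sdhc, a membrane anchor of the complex, read 11.78, 11.73, 11.97, 11.78 and 12.04 in QKO and 12.03, 12.16, 12.40 and 12.12 in control, so the groups met at 12.03 to 12.04. It fell by 0.31 ± 0.09 in QKO (adjusted p = 0.013), a call that leaving out control array 3, the highest, took to an adjusted p of 0.059 and quantile normalization to -0.19 and an adjusted p of 0.11. Sdhb, the iron-sulfur subunit, read 13.47 to 13.59 in QKO and 13.39 to 13.48 in control, a difference of 0.11. Sdhd, the other anchor, read 13.06 to 13.27 in QKO and 13.09 to 13.20 in control, a difference of 0.02, and neither passed. In Myc KO and in TKO 0 of the 4 passed, and 2 and 1 had an unadjusted p below 0.05.

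In complex III 0 of 8 genes passed against control in QKO, Myc KO or TKO by limma, with 2, 0 and 1 at an unadjusted p below 0.05. On their brightest probe sets the core proteins Uqcrc1 and Uqcrc2 differed by 0.11 and -0.01 in QKO, and the Rieske iron-sulfur protein Uqcrfs1 by -0.10. All 8 intervals lay within 0.5 of 0 in each comparison. Against TKO, 2 small subunits were higher in QKO. Uqcr10 rose by 0.20 ± 0.05 (adjusted p = 0.018), at 13.26, 13.23, 13.32, 13.37 and 13.33 in QKO and 13.01, 13.07, 13.10, 13.25 and 13.08 in TKO. Uqcrq rose by 0.18 ± 0.05 (adjusted p = 0.034), at 13.52 to 13.71 in QKO and 13.37 to 13.53 in TKO. The Uqcr10 groups overlapped through 1 TKO array, and without arrays 2 and 5 the adjusted p was 0.077 for Uqcr10 and 0.044 for Uqcrq. Both other probe sets of Uqcr10 went the other way, at -1.04 and -1.71, and did not pass, so its direction turns with the probe set. The Uqcrq call was lost when any of 6 arrays was left out (adjusted p up to 0.073).

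In complex IV, Cox7a2l fell in Myc KO. Its product joins complexes III and IV into supercomplexes. It read 11.63, 11.38, 11.57 and 11.48 in Myc KO, 11.89, 11.74, 11.72, 11.57 and 11.59 in QKO, 11.81, 11.99, 11.68, 11.86 and 12.09 in TKO, and 11.86, 12.11, 11.87 and 11.86 in control. Myc KO lay below control without overlap, and QKO reached into the control range. The difference was -0.41 ± 0.10 in Myc KO (adjusted p = 0.015) and -0.22 ± 0.09 in QKO (adjusted p = 0.082), where 1 of its other probe sets did pass, at -0.38. The Myc KO call was lost when control array 2 or Myc KO array 2 was left out, with an adjusted p up to 0.061, and with the actin gap as a covariate (-0.35, adjusted p = 0.080). The small subunits Cox6b1 (0.15), Cox6a1 (0.14) and Cox8a (0.14) passed as higher in QKO against control, and none of these 3 passed with array medians set equal. They were lost when any of 5, 4 and 8 arrays was left out. Cox8a read 14.12, 14.09, 14.13, 14.04 and 14.09 in QKO, 14.09, 14.11, 14.07 and 14.04 in Myc KO, 13.90, 13.89, 13.88, 13.88 and 13.85 in TKO, and 13.96, 13.98, 14.00 and 13.90 in control. Every array without Myc was above every array with Myc. QKO was 0.21 ± 0.04 above TKO for Cox8a (adjusted p = 0.0038), and this held in every alternative that gave it a value. Cox4i1, the largest nuclear-encoded subunit, differed by 0.03 in QKO, 0.01 in Myc KO and 0.04 in TKO. Cox7c, a small subunit, had the lowest difference of the 81 in QKO against Myc KO, at -0.38 ± 0.19, which did not pass (adjusted p = 0.26). It read 8.37, 7.93, 8.06, 8.002 and 7.80 in QKO, 8.46, 8.47, 8.52 and 8.20 in Myc KO, 7.47, 8.61, 7.76, 7.56 and 8.24 in TKO and 8.01, 8.44, 8.14 and 8.29 in control. The arrays labelled TKO 2 and 5 were the highest of TKO, and without them the QKO minus Myc KO difference, then with a smaller error, passed (adjusted p = 0.049).

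The 7 isoforms that mark muscle, testis or lung did not pass in any comparison against control on their brightest probe sets, with 1 at an unadjusted p below 0.05 in QKO, 1 in Myc KO and 0 in TKO. Cox4i2 read 5.65 to 6.14 over the 18 arrays, Cox8b 5.54 to 5.94 and Cox7b2 3.39 to 3.87, at or below the array medians. Cox6a2 read 7.16 to 7.70, Cox6b2 6.88 to 8.41 and Cox8c 8.68 to 9.13, all with overlapping groups. A dimmer probe set of Cox8c read 7.31 to 7.70 in QKO, 7.36 to 7.64 in Myc KO, 6.63 to 7.16 in TKO and 6.69 to 6.95 in control, and it passed as higher in QKO (0.71, adjusted p = 0.0001) and Myc KO (0.65, adjusted p = 0.0014). Cox7a1, the heart and muscle form, read 10.22, 10.18, 10.47, 8.77 and 9.75 in QKO, 10.14, 10.13, 10.23 and 9.96 in Myc KO, 11.12, 10.23, 10.29, 10.13 and 10.20 in TKO, and 10.68, 10.86, 10.51 and 10.15 in control. The difference of -0.67 ± 0.27 in QKO was the lowest of the 81, and it did not pass (adjusted p = 0.075). The groups overlapped, with QKO array 4 far below the rest. The mean signal of 7 striated muscle markers was 6.41 to 6.65 in QKO, above its 5.98 to 6.36 in control, and that of 7 smooth muscle markers was 5.42 to 5.46 in QKO and 5.30 to 5.44 in control, below the array medians. Among the striated muscle markers Mylpf alone passed in QKO against control, and it was lower (-0.32, adjusted p = 0.040). Ndufa4l2, the paralog of Ndufa4 known as a hypoxia-induced gene, rose by 0.36 ± 0.08 in Myc KO (adjusted p = 0.010) and 0.21 ± 0.07 in QKO (adjusted p = 0.039). It read 7.64, 7.69, 7.79, 7.91 and 7.61 in QKO, 7.83, 7.94, 7.84 and 7.88 in Myc KO, and 7.65, 7.41, 7.43 and 7.56 in control, so only Myc KO was clear of control. The QKO call was lost when any of 6 arrays was left out (adjusted p up to 0.12). Ndufa4 itself, now counted as a subunit of complex IV, differed by -0.05 in QKO and 0.05 in Myc KO.

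In complex V, Atp5pb fell in QKO. Its product is the b subunit of the peripheral stalk that holds the catalytic head still. It read 12.99, 13.11, 13.10, 13.09 and 13.25 in QKO, 13.08, 13.13, 13.12 and 13.25 in Myc KO, 13.36, 13.37, 13.42, 13.39 and 13.31 in TKO, and 13.29, 13.37, 13.38 and 13.32 in control. The arrays without Myc all lay below the arrays with Myc. The difference was -0.24 ± 0.06 for QKO minus control (adjusted p = 0.0063) and -0.26 ± 0.05 for QKO minus TKO (adjusted p = 0.0039). In Myc KO the difference of -0.20 did not pass (adjusted p = 0.054). With quantile normalization the QKO difference was -0.13 and did not pass. The other bright probe set of Atp5pb differed from control by -0.13 in QKO and -0.04 in Myc KO. Neither passed, nor did its -0.07 in QKO against TKO. Atp5d, the delta subunit of the central stalk, went the other way. It read 13.84, 13.74, 13.77, 13.68 and 13.75 in QKO, 13.79, 13.78, 13.78 and 13.70 in Myc KO, 13.58, 13.51, 13.48, 13.46 and 13.58 in TKO, and 13.53, 13.64, 13.62 and 13.52 in control. Both groups without Myc were above every other array. Atp5d was 0.18 ± 0.05 above control in QKO (adjusted p = 0.019), 0.18 ± 0.06 in Myc KO (adjusted p = 0.049), and 0.23 ± 0.05 above TKO in QKO (adjusted p = 0.0046). The Myc KO call was lost when any of 16 arrays was left out, and both calls against control with array medians set equal. The other bright probe set of Atp5d differed from control by 0.0009 in QKO and 0.02 in Myc KO. It was 0.09 higher in QKO than in TKO, and none of these passed, so the rise of Atp5d rests on 1 probe set. Atp5k, subunit e, passed as higher in Myc KO by 0.20, and 1 of its other probe sets had the opposite sign there (-0.18) and did not pass. This call was lost when any of the 8 Myc KO and control arrays was left out, with an adjusted p up to 0.11. The catalytic subunits Atp5a1 and Atp5b differed by 0.01 and -0.05 in QKO, and all 17 intervals of the complex lay within 0.5 of 0 in each comparison between groups.

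Loss of Myc can be read in 2 pairs of groups that share no array, Myc KO against control and QKO against TKO. In QKO against TKO 16 members passed, 11 higher and 5 lower, which is 19.8% against 17% of all genes (9.09% higher, 7.95% lower) and 22.8% of the bright genes. The split was 25 and 3 with quantile normalization, and 4 and 5 with array medians set equal. Both comparisons called Ndufb10 and Ndufc2 lower and Ndufc1, Atp5d and Atp5k higher, which is 71.4% of the 7 calls in Myc KO and 31.2% of the 16 in QKO. Of these 5, the Myc KO calls of Ndufc1, Atp5d and Atp5k are the ones lost when single arrays were left out. Across the 81 genes the differences correlated at a Pearson r of 0.50 (0.73 without Ndufs5), against 0.64 across all 18193 genes. Genes are not independent samples, and this is a description. Without arrays 2 and 5 the number in QKO against TKO was again 16, or 19.8% against 11.8% of all genes, and 9 of the 16 were the same genes. The calls not described above were Ndufs8 (0.20), an iron-sulfur subunit of complex I, and Cox5b (0.13) of complex IV, and Ndufa3 (0.20), Sdha (0.17) and Ndufa6 (-0.26) passed here as in QKO against control. The call of Cox5b was lost when any of 17 of the 18 arrays was left out and that of Ndufs8 when any of 16 was, with adjusted p up to 0.088 and 0.098, and 3 of the 5 other bright probe sets of Ndufs8 had the opposite sign. Those of Ndufa3, Sdha and Atp5k were each lost when any of 5 arrays was left out. Loss of the E2f genes can be read in TKO against control and QKO against Myc KO. These called 1 and 2 members and shared 0, and r was 0.40 (0.70 without Ndufs5), against 0.64 across all genes. Groups did not overlap for 20 members in QKO against control (26.2% of all genes), 27 in Myc KO (22.4%), 4 in TKO (5.43%), 14 in QKO against TKO (9.22%) and 16 in QKO against Myc KO (13.7%).

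Other mitochondrial genes gave lower medians than the subunit genes when Myc was lost. Of 21 genes for protein import, 11 were lower and 0 higher in QKO, with a median of -0.24, and 7 lower and 0 higher in Myc KO, with a median of -0.26. Those are 52.4% and 33.3% of the list, when 12.6% and 4.72% of all genes were lower in QKO and in Myc KO. Of the bright genes 31.8% and 15% passed in either direction, a higher background for lists of well-expressed genes. Timm9, a chaperone of the intermembrane space, fell by 1.17 in QKO and 0.90 in Myc KO. Tomm70a, an import receptor of the outer membrane, fell by 0.91 in QKO and 0.73 in Myc KO, and Tomm20, another, by 0.49 and 0.47. Of 17 TCA cycle genes, 8 were lower and 0 higher in QKO (47.1%, median -0.23), led by Suclg2 of succinyl-CoA synthetase (-0.69) and Dld, the shared dehydrogenase subunit (-0.60). Of 13 genes that maintain and transcribe mitochondrial DNA, 5 were lower and 0 higher in QKO (38.5%, median -0.28), among them Mgme1 (-0.70) and the RNA polymerase Polrmt (-0.32). In Myc KO 4 of the 17 (23.5%) and 3 of the 13 (23.1%) were lower, the last including Tfam (-0.46), which packages mitochondrial DNA. The respiratory chain's median was 0.01 in QKO and 0.03 in Myc KO on the same scale, and no test of the difference between the lists was made. With quantile normalization the import, TCA and mitochondrial DNA medians in QKO were -0.15, -0.13 and -0.19, with 6, 4 and 3 genes lower. With the actin gap as a covariate the 3 counts of lower genes were 9, 7 and 2 in QKO and 4, 2 and 1 in Myc KO. In TKO 0 genes of the import, TCA and mitochondrial DNA lists passed by limma with all arrays, with 1, 6 and 0 at an unadjusted p below 0.05, and 0, 3 and 1 were lower without arrays 2 and 5. The mean signal of the TCA list was 11.801 to 11.88 in TKO and 11.932 to 12.015 in control, without overlap. It was 11.745 to 11.831 in Myc KO and 11.642 to 11.835 in QKO. A lower TCA mean was thus not limited to the groups without Myc. The import and mitochondrial DNA means of TKO overlapped control.

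**Figure D5:**
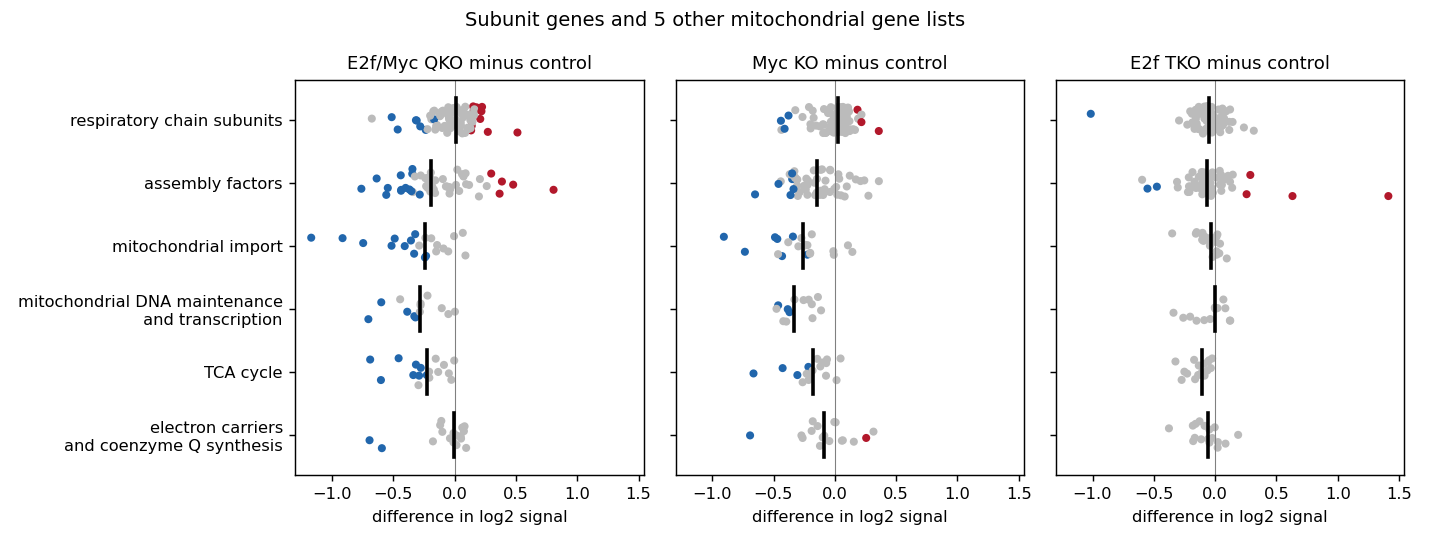
Difference in log2 signal of each gene (points) in the 81 subunit genes and 5 other mitochondrial lists, for QKO, Myc KO and TKO minus control from left to right. Blue and red points passed as lower and higher, grey points did not, and the black bar is the list's median, which is near 0 for the subunits and between -0.15 and -0.33 for assembly, import, mitochondrial DNA and TCA genes in QKO and Myc KO.

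Genes that assemble the complexes were mixed. Of 52 assembly factors, 13 were lower and 5 higher in QKO (median -0.19), 6 lower and 0 higher in Myc KO (median -0.15), and 2 lower and 4 higher in TKO (median -0.07). The shares called, 34.6%, 11.5% and 11.5%, stand beside 26.9%, 8.31% and 2.9% of all genes. In QKO Tmem70, needed to build complex V, fell by 0.76, Bcs1l, which inserts the Rieske protein into complex III, by 0.64, and Sco1, which brings copper to complex IV, by 0.43. Ndufaf1, which helps to assemble the membrane arm of complex I and whose gene lies on chromosome 2, as does E2f1, rose by 1.41 ± 0.13 in TKO (adjusted p = 4.2e-06). Its rise in QKO was 0.81 ± 0.13, with an adjusted p of 0.00023, and in Myc KO it differed by -0.32 without passing. Ndufaf3 fell by 0.55 in TKO, and without arrays 2 and 5 the count in TKO was again 4 higher and 2 lower. Of 17 genes for electron carriers and coenzyme Q synthesis, 2 were lower and 0 higher in QKO (Coq3 at -0.69 and Coq4 at -0.59), or 11.8%, below the 26.9% of all genes. Of 12 regulators of mitochondrial genes, 2 were lower and 1 higher in QKO and 3 lower and 1 higher in Myc KO. Of all genes 26.9% passed in QKO, near the share of this list, and 8.31% in Myc KO. Gabpa, a subunit of the GABP factor whose core motif was searched above, fell by 0.90 in QKO and 0.39 in Myc KO, and Yy1 by 0.67 and 0.40. Tfam was the other that fell in Myc KO. Esrrg, an orphan nuclear receptor, rose by 0.64 in QKO (adjusted p = 0.017), and Ppargc1a, the PGC-1alpha coactivator, by 1.02 in Myc KO. The assembly median stayed negative in QKO with quantile normalization (-0.09), where 11 were lower and 9 higher.

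Cell markers moved beside these values. In QKO, of 12 enteroendocrine genes 9 were higher, of 5 tuft cell genes 5, and of 8 stem cell genes 4, with 0 lower in each list. In Myc KO 2 enteroendocrine, 1 tuft cell and 2 stem cell genes were higher, and in TKO 3 enteroendocrine genes, with Gip and Neurod1 in both. Of all genes 14.3% were higher in QKO, 3.59% in Myc KO and 1.68% in TKO. The mean signal of the enteroendocrine genes was 9.57 to 9.99 in QKO, 9.18 to 9.55 in Myc KO, 9.35 to 9.56 in TKO and 8.78 to 9.11 in control. That of the tuft cell genes was 7.12 to 7.51 in QKO, 6.93 to 7.003 in Myc KO, 6.71 to 7.05 in TKO and 6.71 to 6.76 in control. Of 12 enterocyte genes 0 passed limma in either direction and 0 had an unadjusted p below 0.05, with 11.83 to 13.13 in QKO and 12.66 to 13.16 in control. The part of these cell types in the subunit genes' values was not tested.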

How the data were processed

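Total RNA of 18 crypt samples was read on a 1-colour expression array with 45101 probe sets, 1 array a sample. The values were deposited by the authors on a log2 scale, and they ran from 2.29 to 14.81. The normalization that made these log2 values is not given in the sources used here, and the file holds no detection calls. No further normalization was applied. After 64 control probe sets were set aside, 34945 probe sets listed 1 symbol and 932 listed several; those with 1 symbol gave 18193 genes, each read by its probe set of highest mean. Between arrays, the number of arrays and not depth limits the precision.

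One linear model of the 4 group means over all 18 arrays was fitted with limma 3.58.1 in R 4.3.3 and gave every difference, SE, 95% interval and two-sided p, adjusted by Benjamini-Hochberg over the 18193 genes in each of 6 comparisons. All adjusted p-values printed are limma's, and a gene passed below 0.05. For single probe sets the adjustment ran over all probe sets. The procedure was tested on simulated data. Plots used matplotlib (3.10.9) under Python (3.11.15).

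The members, the lists and the tests were chosen with earlier results of these data known. Named in the text are, per comparison and complex, up to 4 members with the smallest p among those that passed and the largest and smallest differences, every complex II subunit and every tissue isoform with its partner, plus other members that passed. For the other lists up to 4 genes with the smallest p were named. Nubp1 was taken off the assembly list after its values were seen, since it is not an assembly factor of complex V. Genes were matched to RefSeq through their Entrez numbers (18032 matched). Alternatives covered the scaling, the choice of probe set, the filter on low values, the error model, covariates and leaving out arrays.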

Additional observations from a re-analysis of the deposited data

Results flagged for a closer look

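Of 124 groups of arrays checked, over the 26 members that passed a test and the 5 complex means, 8 had 1 array far from the others by Dixon's criterion, and about 1 in 20 groups meet it by chance. The array labelled Myc KO 4 was lowest of its group for Atp5d, at 13.703. The array labelled E2f TKO 1 read 12.942 for Atp5k and 12.459 for Ndufs8, TKO 3 read 14.284 for Cox6a1, and TKO 2 read 11.736 for Sdhc. In control, array 2 read 12.115 for Cox7a2l, array 3 read 11.728 for Ndufa5, and array 1 read 13.075 for Uqcr10. The effect of losing Myc on Ndufs5 differed between mice without and with E2f1, E2f2 and E2f3, by 1.1407 on the log2 scale in the limma interaction test. The causes were not tested.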

How the results depend on the processing

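The medians over the members stayed near 0, and counts moved with scaling and with the choice of probe set. Quantile normalization gave 15 members past the test in Myc KO against control (11 higher, 4 lower), 28 in QKO against TKO (25 and 3) and 4 in QKO against Myc KO (4 and 0), with medians of 0.091 in Myc KO against control, 0.086 in QKO against control and 0.12 in QKO against TKO. With array medians set equal, 9 passed in QKO against TKO (4 and 5) and 4 in QKO against Myc KO (2 and 2), and the medians were -0.049 in QKO against control, 0.023 in QKO against TKO and -0.070 in QKO against Myc KO. Averaging all probe sets of each gene gave 4 in TKO (2 and 2) and 11 in Myc KO (4 and 7) against control, and medians of -0.013 in Myc KO against control, -0.041 in QKO against control and 0.012 in QKO against TKO. Leaving out probe sets whose names end in _s_at, _x_at or _a_at gave 2, 3 and 10 in TKO, Myc KO and QKO against control, and 0 in QKO against Myc KO, among fewer members. Testing every probe set gave 4, 18 and 36 in TKO, Myc KO and QKO against control, 28 in QKO against TKO and 2 in the interaction. Array weights gave 3 in TKO against control, 13 in Myc KO against control and 5 in QKO against Myc KO. The actin gap as a covariate gave 3 in Myc KO against control and 10 in QKO against TKO, the groups of QKO and TKO alone gave 8, and genes above the median level alone gave 4 in QKO against Myc KO. Without the arrays labelled TKO 2 and 5, chosen after seeing the data, as was testing every probe set, 6 passed in TKO against control and 6 in QKO against Myc KO, and the interaction median was 0.058.

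Leaving out 1 array at a time gave 1 to 2 members in TKO, 3 (without control 2) to 9 (without TKO 1) in Myc KO, and 10 (without control 4) to 24 (without TKO 1) in QKO against control, 11 to 15 in QKO against TKO, 2 to 3 in QKO against Myc KO and 1 in the interaction. Ndufc2 in QKO against control turned to 0.029 with its probe sets averaged and 0.10 without suffixed ones, Uqcr10 in QKO against TKO to -0.85 and -1.71, and Ndufa12 in QKO against Myc KO to -0.18 without suffixed ones; the other probe sets of these genes differ, as described above. Of 45 calls over 26 genes, 12 held in every alternative that gave them a value, namely Ndufs5 (TKO against control, QKO against TKO and the interaction, none of which used the probe set shared with its pseudogene), Ndufb10 (Myc KO and QKO against control), Ndufa3, Ndufa5, Ndufv3 and Sdha (QKO against control), Atp5d and Cox8a (QKO against TKO) and Ndufv3 (QKO against Myc KO). The labels do not say that a replicate number marks a shared litter or day, and 13 of 24 same-numbered pairs, not all of them, had deviations correlated above 0.1 (range -0.16 to 0.35), so the numbers were not treated as pairing the samples. With the number as a replicate block 41 of 45 calls held, and Cox6b1, Ndufa4l2 and Ndufa7 in QKO against control and Cox5b in QKO against TKO did not pass. The cause of the other changes was not tested. The fit of the compared groups alone could not be made for the interaction, which uses all 4. With the Xist signal as a covariate Atp5d in Myc KO, Cox8a, Ndufa4l2, Ndufa7 and Ndufa9 in QKO against control and Cox5b and Ndufs8 in QKO against TKO did not pass. The number of arrays limits what differences could be seen.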

Other observations

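Uqcr10, a small subunit of complex III, had a bright probe set that stayed at 13.01 to 13.37 on all arrays, and 2 dim ones that did not. The first dim probe set read 9.65, 9.53, 9.87, 6.52 and 6.88 in QKO, 9.60, 9.77, 6.76 and 7.01 in Myc KO, 9.89, 10.66, 9.92, 10.03 and 10.497 in TKO, and 6.71, 6.72, 7.06 and 6.79 in control. All TKO arrays were high, all control arrays low, and QKO and Myc KO were split. The second gave the same split, with 9.94, 9.82, 10.17, 8.21 and 8.05 in QKO and 7.93, 7.70, 8.08 and 7.80 in control. When every probe set was tested, the difference of TKO from control was 3.38 (limma adjusted p = 0.012) and 2.40 (adjusted p = 0.0062).

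Sdha had a dim probe set that differed from control in all 3 knockouts. It read 7.23, 6.40, 6.70, 6.85 and 6.83 in QKO, 6.92, 7.38, 6.78 and 6.85 in Myc KO, 6.41, 6.19, 6.51, 6.07 and 6.66 in TKO, and 5.17, 5.35, 5.49 and 5.32 in control. The difference from control was 1.47 in QKO, 1.65 in Myc KO and 1.03 in TKO, against 0.22 in QKO on the brightest probe set. Which transcripts these dim probe sets read was not tested.

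All 17 complex V members had a negative difference in QKO against Myc KO, with a median of -0.04, and 0 of them passed limma, with 2 at an unadjusted p below 0.05. Of 13 beta-oxidation genes, 3 were lower and 0 higher in QKO against control, or 23.1%, when 26.9% of all genes passed.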
